A study of Mus musculus with 12 samples.

Results

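The transcripts of 10 microtubule-associated protein genes were examined in somatosensory cortex of male C57BL/6 mice. The genes were Map4, Map1a, Map1b, Map2, Mapt, Dcx, Dclk1, Map6, Map7 and Stmn1, and every row of the count files that carried one of these symbols was taken, which gave 34 of 35840 RefSeq transcripts and 10 of 24452 symbols. The groups were wildtype (WT) and p53 KO mice, the latter homozygous for the Trp53 tm1Tyj allele, given a pair of intraperitoneal injections of saline or of ethanol on postnatal day 7 and killed 8 hours later. Each of the 4 groups held 3 libraries of stranded total RNA-Seq, and each library is named here by its group and library number as labelled. Map4 was selected on its values in WT ethanol versus WT saline, in KO saline versus WT saline and in the Genotype x Treatment interaction, and Dcx on its lower level in KO mice after ethanol, so the values of these genes are given as a description and without a test.

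Microtubules are hollow polymers of alpha and beta tubulin that carry transport and give neurons their shape. Proteins that bind along them set how stable, how bundled and how dynamic they are. Map2 is found mainly in dendrites and the product of Mapt, tau, mainly in axons, whereas Map4 is made in most cells. Map1a and Map1b are large neuronal proteins, of which Map1b is the form of early development. Dcx, doublecortin, and its relative Dclk1 bind microtubules in young and migrating neurons. Map6 protects microtubules from cold, Map7 recruits kinesin-1, and stathmin, the product of Stmn1, binds free tubulin and favors disassembly.

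The total count ranged from 719735 in the library labelled KO ethanol 12 to 17066392 in KO saline 8, and all 34 transcripts passed the low-count filter. In bulk tissue, fewer cells of a type and less RNA per cell cannot be told apart. The neuronal markers were present throughout, with Snap25 at 281 to 922 CPM (counts scaled to the TMM-normalized library size). Markers of neighboring tissue varied within groups, and in WT ethanol the summed striatal list ranged from 43 to 607 CPM, the thalamic from 44.6 to 552 and that of choroid plexus from 20.6 to 4953. The 3 WT saline libraries and the library labelled KO ethanol 12 stood apart from the other 8. Transcripts over 4000 bases held 13.8%, 27.6%, 20.3% and 17.8% of their counts, against 29.5% to 36.7% elsewhere. The summed level of 4 blood genes was 328 to 1283 CPM in WT mice after saline, 48.7 to 139 in WT mice after ethanol, 35.6 to 93.2 in KO mice after saline and 28.8 to 745 in KO mice after ethanol, and the highest KO ethanol value belonged to library 12. All 4 blood genes were lower in both comparisons with WT saline at unadjusted p under 0.05, where 18.3% (WT ethanol) and 19.6% (KO saline) of all symbols were called. The part of long transcripts and of blood in the results below was not tested. As a check of genotype, the transcript NM_001127233 held 7.01% to 23.1% of the Trp53 count in WT libraries and 65.7% to 70.6% in KO saline. It held 70.6%, 7.01% and 48.3% in KO ethanol 10, 12 and 18, so that the share in the library labelled KO ethanol 12 went against its label, on a Trp53 count of 14. The same 7.01% was found in WT saline 1, WT saline 3 and WT ethanol 5, a repeated value like the fixed ratios described below. On its own it cannot decide the genotype of the library labelled KO ethanol 12.

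The way reads were divided among transcripts also differed between libraries. In some libraries the counts of 2 transcripts of a gene stood in the same ratio, within 0.01%, as in another library. Over all symbols, 50.5% of transcript pairs in the library labelled KO ethanol 12, 46.1% in WT saline 3 and 32.4% in WT saline 1 had a ratio shared with another library, against 9.71% to 22.9% in the other 9. Map4 showed this directly: NM_001311163 to NM_001311164 was 0.396 in WT saline 1, WT saline 3 and the library labelled KO ethanol 12, and NM_001205330 to NM_008633 was 0.414 in the same 3 libraries. Across the 12 libraries these ratios reached 1.68 and 1.36. For Mapt, NM_001038609 to NM_010838 was 0.200 in the same 3 libraries and up to 0.261 elsewhere. Such fixed ratios lie in the groups that the comparisons below rest on, and their part in the transcript results was not tested.

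The transcripts of Map4 and of Dclk1 leave from more than 1 start site, as do those of Map2, Map1a, Map6 and Dcx. The windows around the starts are printed for Map4 and Dclk1 only. The groups of transcripts that differed below are split along the starts in Dclk1, as also in Map2, and not in Map4. Coordinates are those of mm10. Map4 lies on the plus strand of chromosome 9, where 4 transcripts start at 109931774 and 2 at 110052021. Dclk1 lies on the plus strand of chromosome 3, where 3 transcripts start at 55242526 and 4 at 55461758. The other members lie on chromosomes 1 (Map2), 2 (Map1a), 4 (Stmn1), 7 (Map6), 10 (Map7), 11 (Mapt), 13 (Map1b) and X (Dcx). The windows below, from RefSeq on GRCm38.p6, cover 250 bases before and 50 after a RefSeq start. That start was the same as in the count files for both Map4 windows and lay 162 and 30 bases from it for the upstream and downstream Dclk1 windows. Capitals mark GGGCGG and CCAAT, read on either strand, and no marked motifs overlap.
Map4 upstream, chr9:109931524-109931823: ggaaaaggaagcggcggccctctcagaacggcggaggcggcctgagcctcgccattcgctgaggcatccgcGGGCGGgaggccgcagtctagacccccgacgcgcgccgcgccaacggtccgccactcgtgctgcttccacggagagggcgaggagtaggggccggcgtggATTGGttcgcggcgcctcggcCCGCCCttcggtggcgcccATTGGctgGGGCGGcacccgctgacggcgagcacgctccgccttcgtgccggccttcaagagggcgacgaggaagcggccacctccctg
Map4 downstream, chr9:110051771-110052070: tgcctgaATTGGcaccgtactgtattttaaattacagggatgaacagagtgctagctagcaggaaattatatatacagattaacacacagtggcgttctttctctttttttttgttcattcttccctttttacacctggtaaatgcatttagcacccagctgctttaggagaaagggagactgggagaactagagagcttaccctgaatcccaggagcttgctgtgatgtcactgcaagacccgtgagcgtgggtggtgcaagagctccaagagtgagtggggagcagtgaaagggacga
Dclk1 upstream, chr3:55242114-55242413: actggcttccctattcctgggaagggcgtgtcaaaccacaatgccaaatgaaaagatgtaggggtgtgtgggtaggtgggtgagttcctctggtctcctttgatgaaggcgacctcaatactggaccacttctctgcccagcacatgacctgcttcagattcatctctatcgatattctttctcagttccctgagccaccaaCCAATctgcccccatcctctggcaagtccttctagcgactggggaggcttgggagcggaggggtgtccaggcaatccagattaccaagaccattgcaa
Dclk1 downstream, chr3:55461478-55461777: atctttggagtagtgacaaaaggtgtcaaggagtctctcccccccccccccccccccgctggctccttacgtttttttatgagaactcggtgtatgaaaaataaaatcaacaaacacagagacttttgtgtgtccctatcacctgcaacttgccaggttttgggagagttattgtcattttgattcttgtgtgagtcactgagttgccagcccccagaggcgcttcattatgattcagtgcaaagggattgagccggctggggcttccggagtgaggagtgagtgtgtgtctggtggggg
The upstream Map4 window was 73.3% G and C with 42 CpG dinucleotides, and it held 3 matches to GGGCGG and 2 to CCAAT. The other 3 windows were 46% to 52.7% G and C with 5 or 6 CpG dinucleotides and held no GGGCGG, a motif found in 35.7% of all 32851 RefSeq windows of this length. CCAAT, found in 37.4%, occurred once in the downstream Map4 window and once in the upstream Dclk1 window. No window held TATAAA (13.6% of all), TGACGTCA (1.79%) or the p53 half-site consensus (8.36%), which says only that these letters were absent from the windows.

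Summed over its transcripts, no member other than Map7 differed between groups at unadjusted p under 0.05. In length-corrected values (summed RPKM, median of 12 libraries), Stmn1 was the most abundant at 2472, followed by Mapt at 282, Map2 at 161, Map1b at 132, Dclk1 at 108, Map4 at 92.4, Dcx at 52.9, Map6 at 46.8, Map1a at 22.2 and Map7 at 4.77. The lowest Stmn1 value, 809, lay above the highest Mapt value, 709, and the highest Map7 value, 7.05, lay below the lowest Map1a value, 12.4. All other neighbors in this order had overlapping ranges over the libraries.

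Map7, which recruits kinesin-1 to microtubules, had summed counts of 9.55, 13.4 and 6.91 CPM in WT mice after saline, 24.3, 21.8 and 23.4 in WT mice after ethanol, 24.6, 21.2 and 22.8 in KO mice after saline and 32.1, 5.01 and 33.4 in KO mice after ethanol. The WT saline libraries and the library labelled KO ethanol 12, which held 3 reads, were the 4 lowest. The log2 fold change was 1.25 ± 0.49 (SE) in WT ethanol versus WT saline (edgeR quasi-likelihood test, adjusted p = 0.22) and 1.23 ± 0.49 in KO saline versus WT saline (adjusted p = 0.201). The background at unadjusted p under 0.05 on summed counts was 18.3% and 19.6% of 14739 symbols in these comparisons, so that 1 member of 10 was below it. In KO ethanol versus KO saline and in the interaction the edgeR test called no member sum at unadjusted p under 0.05, where the background was 3.15% and 15.2%, and DESeq2 called none either.

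The sums of Map6, Mapt and Map1a depended on WT saline 3, and Map1a is described with Map1b. Map6 sums were 46.5, 306 and 91.4 CPM in WT saline 1, 3 and 13 and 143 to 251 in WT ethanol and KO saline. Mapt sums were 614, 3713 and 926 CPM in WT mice after saline, 1113 to 1291 in WT mice after ethanol, 1598 to 1664 in KO mice after saline and 1270 to 1340 in KO mice after ethanol. WT saline 3 was the highest of all 12 libraries for both genes, and the other WT saline libraries were the lowest. Without WT saline 3, the Map6 sum was higher by 1.43 log2 units in WT ethanol (unadjusted p = 0.00366 by edgeR's test) and by 1.34 in KO saline (unadjusted p = 0.00526), and the Mapt sum was higher by 1.04 in KO saline versus WT saline (unadjusted p = 0.0272). With all libraries the Mapt log2 fold changes had the other sign, -0.54 ± 0.57 in WT ethanol and -0.11 ± 0.57 in KO saline, and without WT saline 3 that in WT ethanol was 0.60. Called sums without WT saline 3 numbered 2 in WT ethanol versus WT saline and 3 in KO saline versus WT saline, in place of 1 in each, but 31.7% and 33.6% of all symbols were then called, so that both counts lay below the background. Without WT saline 13 there were 0 in both (unadjusted p of Map7 by edgeR 0.0864 and 0.0901), where 15.7% and 15.5% of all symbols were called. With the first letter of the library name as a covariate the unadjusted p values of Map7 by edgeR were 0.0798 and 0.0835, where 17.8% and 19.8% were called. Without KO saline 7 there were 0 in KO saline versus WT saline, where 15% were called.

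**Figure D1:**
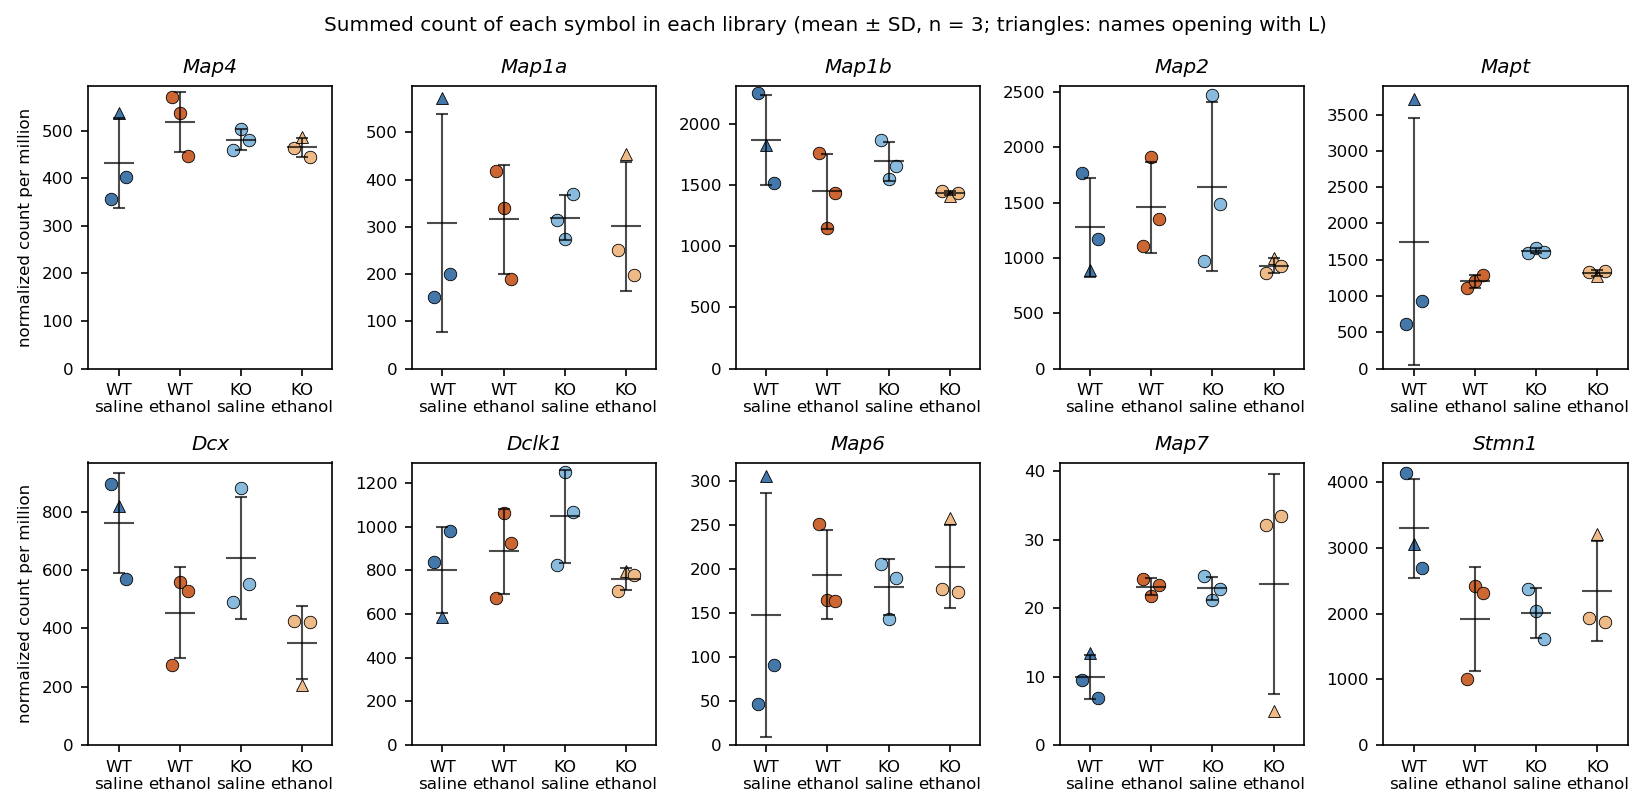
Summed count of each of the 10 genes in CPM (y axis) in the 12 libraries by group (x axis), with the mean ± SD of 3 libraries and triangles for the 2 libraries whose names open with L. WT saline 3, a triangle, is the highest library for Mapt at 3713 and for Map6 at 306, and Map7 is lowest in WT saline and in the library labelled KO ethanol 12.

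In contrast to the sums, single transcripts of several genes differed. In WT ethanol versus WT saline, 14 of 34 member transcripts had an unadjusted p under 0.05 (12 higher and 2 lower), against a background of 18.2% of 21715 transcripts. In KO saline versus WT saline there were 13 (12 higher, 1 lower; background 19.1%), and in the interaction 12 (1 higher, 11 lower; background 15.3%). These comparisons share the WT saline libraries. In KO ethanol versus KO saline there were 3, all lower (background 2.99%). At an adjusted p under 0.30, the level used in the study, the numbers were 15, 14, 12 and 0, against 21.5%, 23.8%, 12.1% and 0% of all transcripts. Part of these counts is Map4, which was selected on the same contrasts. The count in WT ethanol versus WT saline was 9 without WT saline 1, where the share of all transcripts called was also lower, at 11.8%. Without the 2 libraries whose names open with L, WT saline 3 and the library labelled KO ethanol 12, it was 17, where 32% of all transcripts were called. In that fit 10 member transcripts, with Map4 transcripts among them, had an adjusted p under 0.05 in place of 1, which was Map4 NM_001205332. Over all transcripts 3095 of 22195 did so, in place of 12 of 21715. The median log2 fold change of the member transcripts in WT ethanol versus WT saline was 0.08, against 0.06 over all transcripts.

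**Figure D2:**
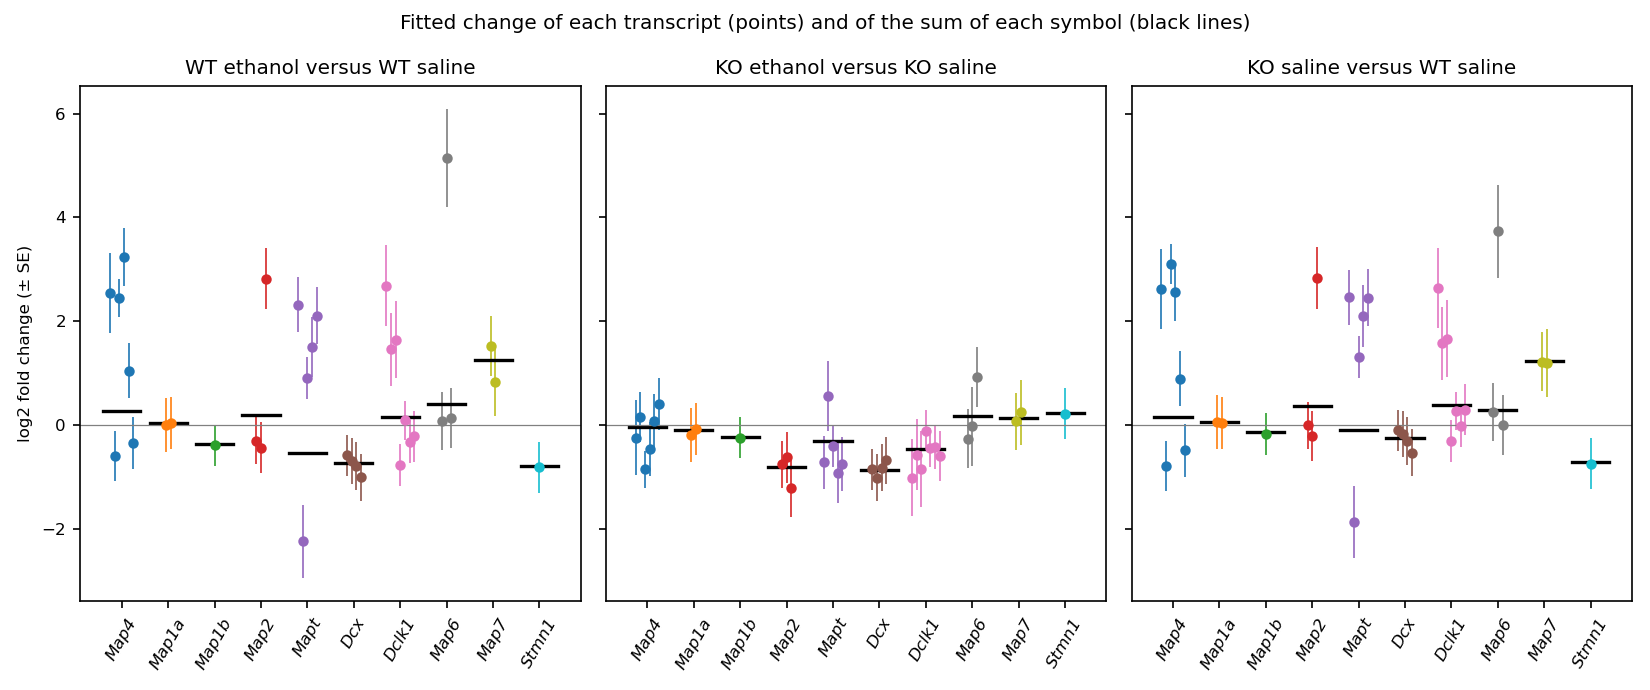
Log2 fold change (y axis) of each of the 34 transcripts (points, ± SE) and of the sum of each gene (black lines) in 3 comparisons. In both comparisons with WT saline the points of Map4, Mapt, Map2, Dclk1 and Map6 spread widely, in WT ethanol from -2.25 for a Mapt transcript to 5.14 for a Map6 transcript around sums of -0.54 to 0.39, whereas in KO ethanol versus KO saline all points lie between -1.22 and 0.92.

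Map4, the microtubule-associated protein of most cell types, had transcripts that differed while the sum did not. Its sum was 432 ± 94.1 CPM (SD, n = 3) in WT mice after saline, 518 ± 63.7 in WT mice after ethanol, 481 ± 22.5 in KO mice after saline and 465 ± 20.3 in KO mice after ethanol, with overlap between the groups in every comparison. Its transcript NM_001205332, of 19 exons in the annotation, had 10.2, 8.19 and 8.92 CPM in WT mice after saline, 42.1, 51.6 and 56 in WT mice after ethanol, 60.2, 99.5 and 75.8 in KO mice after saline and 42.9, 29.5 and 55.2 in KO mice after ethanol. Every WT saline library was below all other libraries. The log2 fold change was 2.45 ± 0.37 in WT ethanol and 3.10 ± 0.38 in KO saline, each versus WT saline, and -0.86 ± 0.35 in KO ethanol versus KO saline. In WT saline libraries these levels rested on counts of 54, 16.4 and 116 reads.

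The other Map4 transcripts with the same start and end had a like pattern. NM_008633 had 10.4, 3.07 and 10.8 CPM in WT saline against 71.2 to 86.1 in WT ethanol, 40.8 to 53.8 in KO saline, and 54.8, 9.83 and 38.1 in KO ethanol. NM_001205330 had 4.34, 1.02 and 13.8 CPM in WT saline against 24.9 to 55.3 in WT ethanol and 29.5 to 55.4 in KO saline, and again the library labelled KO ethanol 12, at 4.92, was with the WT saline libraries. NM_001205332 and NM_008633 have the same start and end and match the same Ensembl transcript of 1124 codons, so their structures could not be told apart with the annotation used here. Their ratio varied from 0.489 to 2.78 over the libraries.

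The short Map4 transcript NM_001205331, which has 4 exons and 99 codons and ends inside the gene at 110005784, went the other way. It held 74.5%, 50.2% and 71.6% of the Map4 count in WT mice after saline, 35.2%, 46.8% and 23.7% in WT mice after ethanol, 27.9%, 36.6% and 36.3% in KO mice after saline and 19.9%, 70.2% and 26.2% in KO mice after ethanol. The share was above that of all other libraries in the 3 WT saline libraries and in the library labelled KO ethanol 12. In CPM it was 269 to 298 in WT saline and 106 to 250 in WT ethanol, a log2 fold change of -0.59 ± 0.48. By start site there was no such split: the upstream start held 71.2% ± 16.1 (SD, n = 3) of the Map4 count in WT mice after saline, 68.2% ± 6.08 in WT mice after ethanol, 69.1% ± 6.1 in KO mice after saline and 63% ± 14.5 in KO mice after ethanol. Among the downstream transcripts, NM_001311163 had a log2 fold change of 1.04 ± 0.53 and NM_001311164 one of -0.35 ± 0.50 in WT ethanol versus WT saline.

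**Figure D3:**
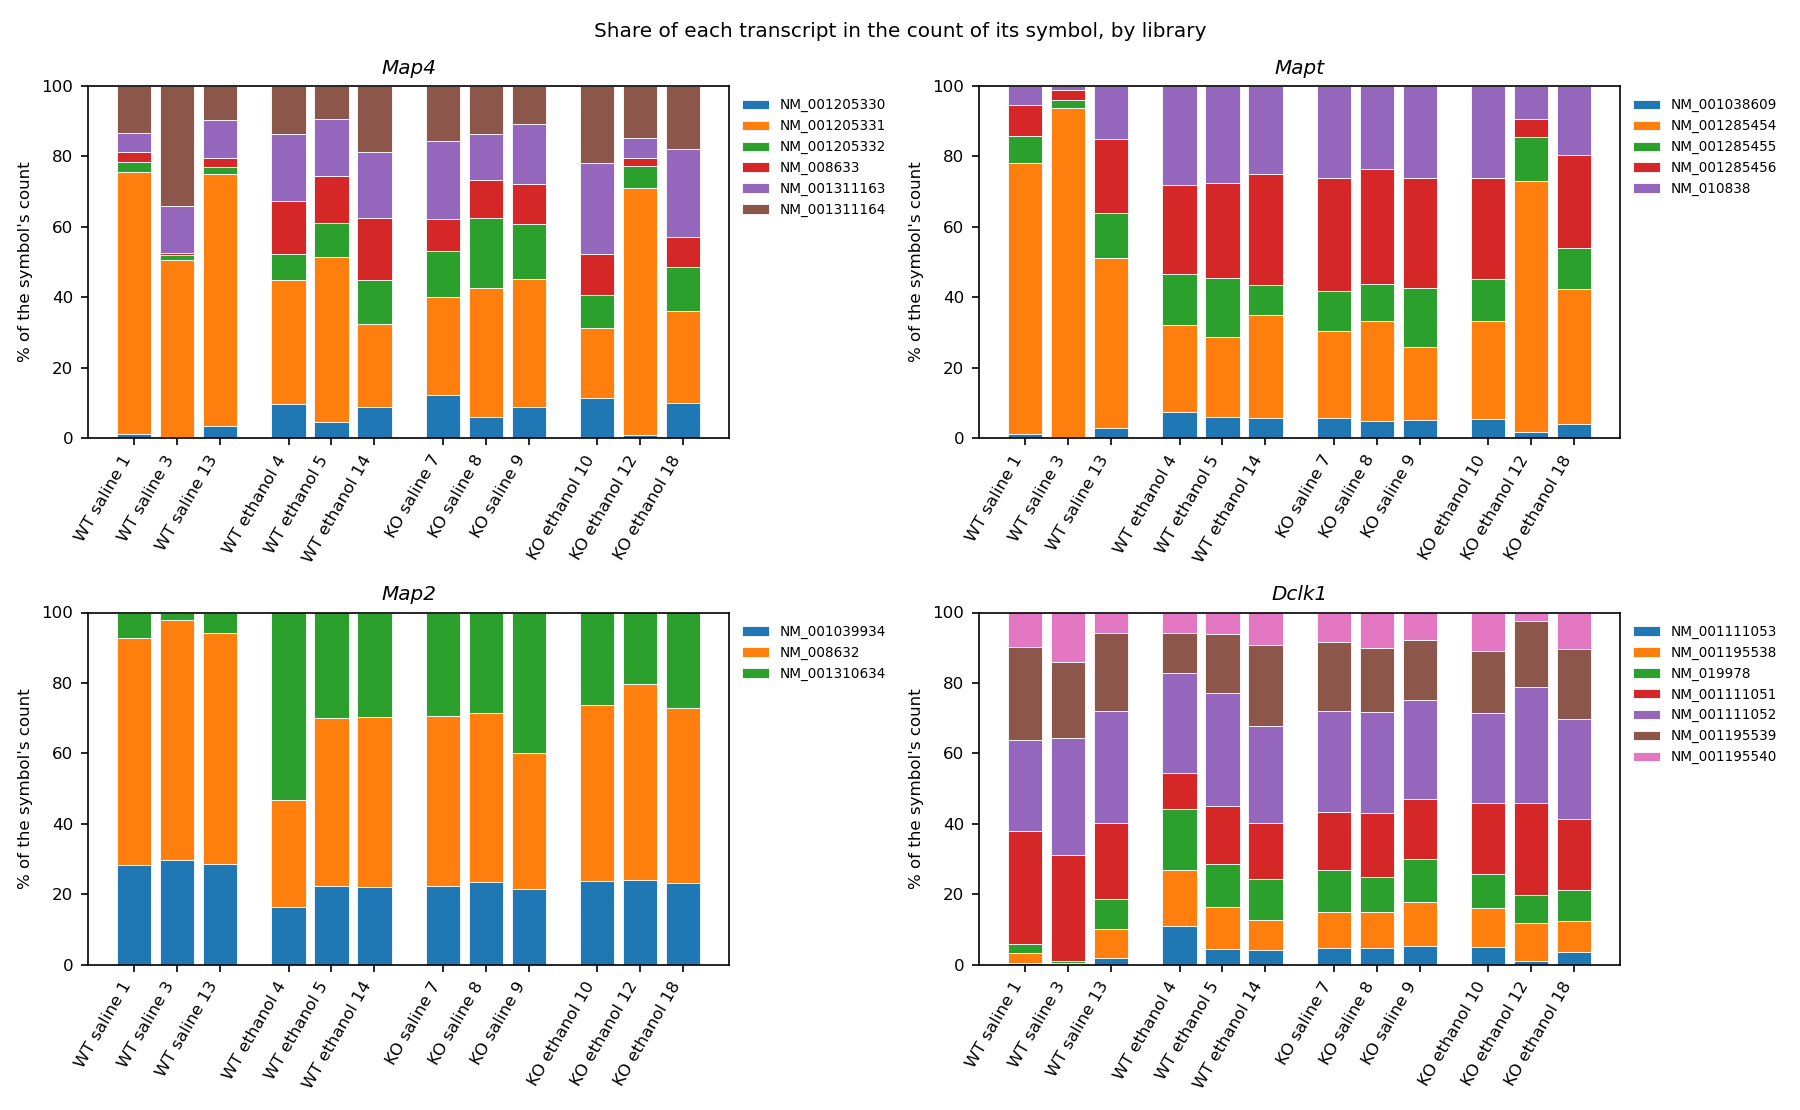
Percent of the gene's count (y axis) held by each transcript (colors) of Map4, Mapt, Map2 and Dclk1 in each of the 12 libraries (x axis). NM_001205331 of Map4 and NM_001285454 of Mapt hold most of the count in the WT saline libraries 1 and 3 and in the library labelled KO ethanol 12, with Mapt at 77.2%, 93.6% and 71.2%.

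Map2 divided between a long and 2 short coding forms. NM_001310634 codes for 1828 amino acids in the annotation, the long form of dendrites, and NM_008632 and NM_001039934 code for 467 and 498, the shorter of which is the juvenile form. On chromosome 1 the long form starts at 66321724 and both short forms at 66175329, so the coding forms also differ by start site. The long form had 130, 18.9 and 71.8 CPM in WT mice after saline, 588, 569 and 405 in WT mice after ethanol, 285, 696 and 592 in KO mice after saline and 228, 200 and 249 in KO mice after ethanol. All WT saline libraries were below all others. Its log2 fold change was 2.82 ± 0.59 in WT ethanol versus WT saline (edgeR, adjusted p = 0.0893) and 2.83 ± 0.59 in KO saline versus WT saline (adjusted p = 0.101). As a share of the Map2 count it was 5.06% ± 2.62 (SD, n = 3) in WT mice after saline, 37.6% ± 13.5 in WT mice after ethanol, 32.6% ± 6.35 in KO mice after saline and 24.6% ± 3.66 in KO mice after ethanol. The short form NM_008632 had 604 to 1176 CPM in WT saline and 334 to 904 in WT ethanol, with a log2 fold change of -0.44 ± 0.49 (adjusted p = 0.652), and the whole Map2 sum differed by 0.19 ± 0.47.

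In Map6, the transcript NM_010837 of 906 codons is the longest coding form. It had 1.13, 0 and 1.38 CPM in WT mice after saline, 57.1, 28.5 and 23.3 in WT mice after ethanol, 13.5, 8.06 and 19.5 in KO mice after saline and 13.1, 0 and 23.1 in KO mice after ethanol. The WT saline libraries were again below the 3 libraries of WT ethanol and of KO saline, and the library labelled KO ethanol 12 had less than 1 read. The fitted log2 fold change was 5.14 ± 0.94 in WT ethanol (edgeR, adjusted p = 0.0666) and 3.73 ± 0.90 in KO saline (adjusted p = 0.118), values that depend on how counts near 0 are handled: the 3 WT saline libraries held an estimated 6.23, under 1 and 18.4 reads. NM_001048167 (568 codons) and NM_001043355 (306 codons) differed by 0.08 ± 0.56 and 0.13 ± 0.58 in WT ethanol versus WT saline.

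**Figure D4:**
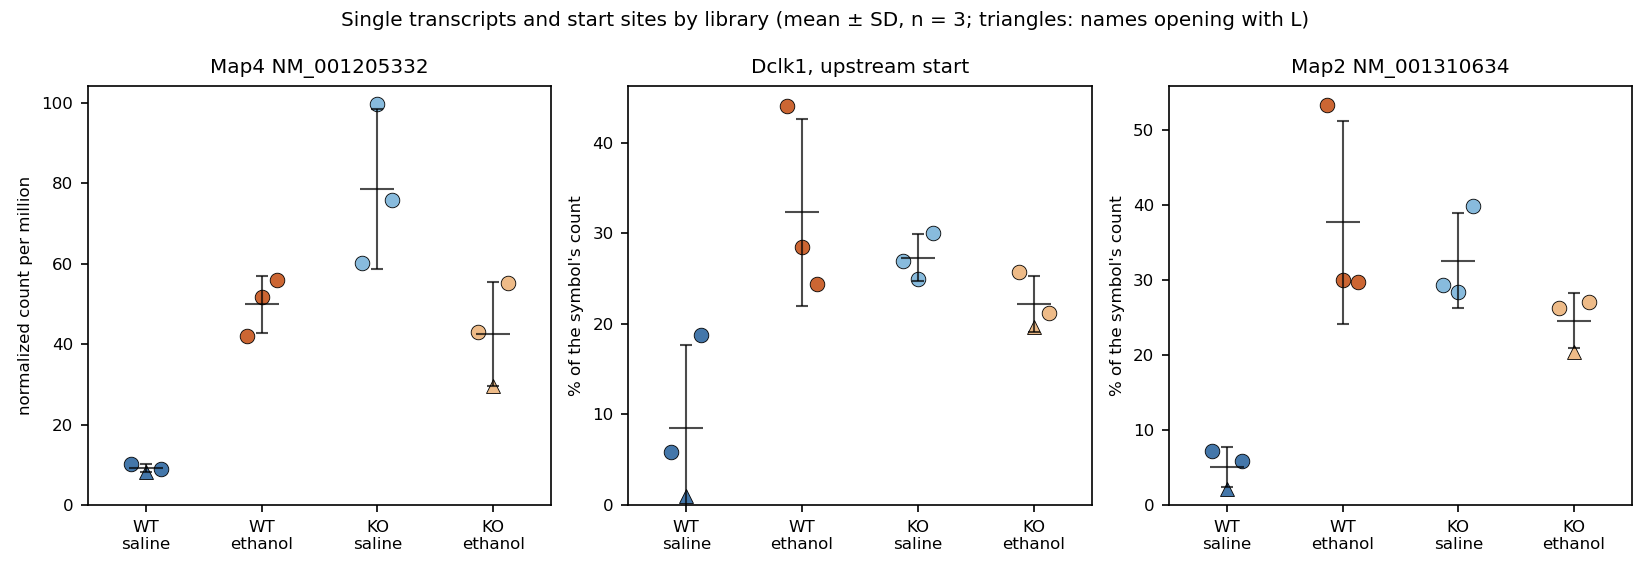
Map4 NM_001205332 in CPM, the share of Dclk1 counts from the upstream start and the share of Map2 counts from NM_001310634, both in percent (y axes), in each library by group (x axis), with mean ± SD of 3 libraries and triangles for the 2 libraries whose names open with L. Every WT saline library lies below the libraries of the other groups in all 3 panels, with Dclk1 closest at 18.7% against 19.6%.

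All 5 Mapt transcripts lie at 104231436 to 104332089 on chromosome 11, and 4 of them match the same Ensembl transcript, so that only NM_001038609 could be told apart in the annotation. NM_001285454 held 77.2%, 93.6% and 48.2% of the Mapt count in WT mice after saline, 24.7%, 22.7% and 29.4% in WT mice after ethanol, 24.8%, 28.6% and 20.7% in KO mice after saline and 27.9%, 71.2% and 38.4% in KO mice after ethanol. In CPM it was 487, 3459 and 462 in WT saline and 272 to 381 in WT ethanol, a log2 fold change of -2.25 ± 0.70 (edgeR, adjusted p = 0.165). The groups did not overlap, but the size rested on WT saline 3, and the log2 fold change was -0.65 without it. The other Mapt transcripts were higher in WT ethanol. NM_010838 had 33.8, 46.6 and 143 CPM in WT saline against 311 to 333 in WT ethanol and 388 to 422 in KO saline, and NM_001038609 had 6.8, 9.21 and 28.6 against 71.5 to 81.1 and 77.9 to 89. Their log2 fold changes in WT ethanol versus WT saline were 2.11 ± 0.54 (adjusted p = 0.115) and 2.31 ± 0.53 (adjusted p = 0.0985).

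For NM_001285456 the Mapt values were 55.7, 101 and 202 CPM in WT saline, 281 to 411 in WT ethanol and 500 to 539 in KO saline. NM_001285455 had the smallest difference, with 47.6 to 123 CPM in WT saline and 108 to 201 in WT ethanol, which overlap. The log2 fold changes were 1.5 ± 0.59 (adjusted p = 0.217) and 0.91 ± 0.40 (adjusted p = 0.256) in WT ethanol, and 2.11 ± 0.60 and 1.31 ± 0.41 in KO saline versus WT saline.

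Dclk1 divided by start site. The upstream transcripts NM_001195538 and NM_019978, of 739 and 756 codons, and the shorter NM_001111053, of 363 codons, code for forms with doublecortin domains. The downstream transcripts NM_001111051, NM_001111052 and NM_001195539, of 422 to 449 codons, code for the kinase without them, and NM_001195540 has 56 codons. The upstream start held 5.82%, 0.948% and 18.7% of the Dclk1 count in WT mice after saline, 44%, 28.5% and 24.4% in WT mice after ethanol, 27%, 24.9% and 30.1% in KO mice after saline and 25.7%, 19.6% and 21.2% in KO mice after ethanol. The WT saline libraries were the 3 lowest, and WT saline 13 lay next to the KO ethanol libraries. NM_001111053 was higher by 2.69 ± 0.78 log2 units in WT ethanol (edgeR, adjusted p = 0.146) and by 2.64 ± 0.78 in KO saline (adjusted p = 0.149), from 3.78, 0.512 and 18.7 CPM in WT saline. NM_019978 was higher by 1.64 ± 0.74 (adjusted p = 0.263) and NM_001195538 by 1.45 ± 0.70 (adjusted p = 0.287) in WT ethanol. The 4 downstream transcripts had log2 fold changes of -0.78 to 0.08 in that comparison, with adjusted p from 0.319 to 0.925.

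Dcx showed no such division, and its group means were lower after ethanol in both genotypes. The sums were 895, 820 and 568 CPM in WT mice after saline, 275, 559 and 528 in WT mice after ethanol, 490, 881 and 553 in KO mice after saline and 425, 207 and 421 in KO mice after ethanol. WT ethanol lay below WT saline and KO ethanol below KO saline without overlap, but the nearest libraries of the WT groups, at 568 and 559, were closer than the spread within either group. In RPKM the WT groups overlapped, with 53.4 in WT saline 13 and 53.6 in WT ethanol 5. The log2 fold change was -0.74 ± 0.44 in WT and -0.86 ± 0.44 in KO mice, and the difference between these was -0.12 ± 0.62. KO ethanol 12 as labelled was the lowest library. The lowest WT ethanol value, 275, was that of WT ethanol 4. In its group that library also had the lowest sum of the excitatory cortical neuron markers, which ranged from 376 to 1168 CPM. It held the highest sums of the thalamic and choroid plexus lists, 552 and 4953 CPM. The part of tissue make-up in the Dcx values was not tested. Each of the 4 Dcx transcripts held 21.7% to 28.2% of the count in the group means, with log2 fold changes of -0.59 to -1.01 in WT and -0.69 to -1.02 in KO mice. Dcx was the most abundant of 7 immature neuron and progenitor markers in every library. By unadjusted p under 0.05, 1 of the 7 was higher and 0 lower in WT ethanol versus WT saline, and 2 higher and 0 lower in KO saline versus WT saline. In KO ethanol versus KO saline 0 were higher and 1 lower, and in the interaction 0 higher and 2 lower. Of all symbols 18.3%, 19.6%, 3.15% and 15.2% were called in these comparisons, and nothing is read from so few markers.

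Map1a and Map1b, the large neuronal proteins, did not pass the test with all libraries. Map1a sums were 151, 573 and 201 CPM in WT saline and 190 to 417 in WT ethanol, and the spread within WT saline exceeded the difference between the groups (log2 fold change 0.04 ± 0.51, adjusted p = 0.976). WT saline 3 was the highest of the 12 libraries, and without it the log2 fold change was 0.78 (unadjusted p = 0.104 by edgeR) in WT ethanol and 0.83 (unadjusted p = 0.0886) in KO saline. Without both libraries named with L it was 0.76 (unadjusted p = 0.0542), 0.80 (0.0456) and, in the interaction, -1.30 (0.0245), in a fit that called 37.3%, 39.2% and 21.4% of all symbols. Its 2 transcripts, of 3014 and 2776 codons, kept a steady division, with NM_001173506 at 72.6% to 78% of the count in all 12 libraries. Map1b has a single transcript, with 1872 ± 370 CPM in WT mice after saline, 1451 ± 308 in WT mice after ethanol, 1697 ± 163 in KO mice after saline and 1436 ± 17.1 in KO mice after ethanol. In RPKM its means were 101, 134, 160 and 122 in the same order of groups, so that WT saline was the lowest. Stmn1 sums were 4144, 3068 and 2693 CPM in WT mice after saline, 1000, 2419 and 2321 in WT mice after ethanol, 2368, 2044 and 1621 in KO mice after saline and 1940, 3218 and 1878 in KO mice after ethanol. All WT saline values lay above those of WT ethanol and KO saline, yet the log2 fold changes of -0.79 ± 0.50 (adjusted p = 0.394) and -0.72 ± 0.50 (adjusted p = 0.432) did not pass the test. Sums in CPM that did not overlap between the groups numbered 3 of 10 in WT ethanol versus WT saline (Dcx, Map7 and Stmn1), against 19.6% of all symbols, and 2 of 10 in KO saline versus WT saline (Map7 and Stmn1), against 22.9%.

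Whether the transcripts of a gene changed by different factors was tested with edgeR's diffSpliceDGE over 4075 genes, in a model that does not hold the uncertainty of dividing reads among transcripts. Of 8 members with several transcripts, 5 were called at unadjusted p under 0.05 in each of WT ethanol versus WT saline, KO saline versus WT saline and the interaction, namely Dclk1, Map2, Map4, Map6 and Mapt. The background was 20.1%, 19.6% and 16.8%. In KO ethanol versus KO saline the count was 0, against 3.61%, and limma-voom called none as well. At adjusted p under 0.05 the counts were 5, 3 and 4, and 0 in KO mice, against 5.18%, 4.56%, 2.92% and 0% of all genes. Map4 was selected on the first 3 contrasts, and nothing is read from its call. Adjusted p values in WT ethanol versus WT saline were 1.61e-05 for Mapt, 0.00613 for Map2, 0.00632 for Map6 and 0.0226 for Dclk1. For Dclk1 the adjusted p was 0.306 without WT saline 1, 0.272 without WT ethanol 4, and 0.0518 to 0.0627 without WT ethanol 5, KO saline 8 or 9, or KO ethanol 10 or 18. For Mapt it was 0.102 without WT saline 3. For Map2 it was 0.0541 and for Map6 0.0516 without WT ethanol 4. Where at least 10 counts in every library were required, which removes the low transcripts, the calls of Map6 (adjusted p = 0.999) and Dclk1 (adjusted p = 0.859) ended, and those of Map2 and Mapt did not (0.00202 and 4.9e-06). Without the 2 libraries named with L the interaction kept 1 call at adjusted p under 0.05 in place of 4. That call was Map4, which was selected on this term. Mapt, Map6 and Map2 then had adjusted p values of 0.0784, 0.0944 and 0.101 by diffSpliceDGE. Over all genes 76 of 4193 were called in that fit, in place of 119 of 4075. Dcx, Map1a and Map7 had adjusted p values of 0.994, 0.998 and 0.755.

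The comparison within p53 KO mice had the fewest calls. The median log2 fold change of the 34 transcripts in KO ethanol versus KO saline was -0.44, against -0.01 over all transcripts. Map2 NM_001310634 (-1.22 ± 0.56), Map4 NM_001205332 and Dcx NM_001110223 (-1.02) were the 3 transcripts at unadjusted p under 0.05. Dcx was selected on this comparison and Map4 on others that share its libraries, so that only Map2 is a test here, and its adjusted p, by edgeR, was 0.9998. The count was 0 without KO saline 8, without KO saline 9 or without the library labelled KO ethanol 12, and 1 without KO ethanol 10 or WT ethanol 14. Of all transcripts, 0.845%, 1.48%, 1.9%, 3.47% and 2.7% were called in these fits, in the same order, against 2.99% with all libraries. Among the sums in CPM, Dclk1, Dcx, Map1b and Mapt were lower in all 3 KO ethanol libraries than in all 3 KO saline libraries, 4 of 10 against 10.8% of all symbols, with Dcx selected on this comparison. Mapt sums were 1335, 1270 and 1340 CPM after ethanol and 1598, 1664 and 1607 after saline. Their log2 fold changes ranged from -0.24 for Map1b to -0.86 for Dcx, and that of Map2, which overlapped, was -0.82 ± 0.47 (adjusted p = 0.999).

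The patterns most like Map4 NM_001205332 over the 12 libraries, by Pearson correlation of log2 CPM, belonged to transcripts of Fam13b (r = 0.956), Etohi1 (0.954), Camk1d (0.948), Hivep3 (0.948) and Dmtf1 (0.947). Within the members, Mapt NM_010838 (0.884), Map2 NM_001310634 (0.883) and Mapt NM_001038609 (0.877) were nearest, and Stmn1 (-0.61) was farthest. Summed Dcx was most like Zfp101 (0.942), Ermn (0.939), Tbr1 (0.93), Zbed5 (0.922) and Adam10 (0.915). All these points share libraries, depth and scaling, and the correlations are a description.

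The other genes of the pathway were counted on their sums at unadjusted p under 0.05, where 18.3%, 19.6% and 15.2% of all symbols were called in WT ethanol versus WT saline, KO saline versus WT saline and the interaction. A share near these is no result about a list. Among tubulins, the subunits of the polymer, 5 of 14 were lower in WT ethanol versus WT saline and 7 of 14 in KO saline versus WT saline, with none higher, and 5 of 14 were higher in the interaction. Their median log2 fold changes were -0.77, -1.27 and 1.30, against 0.06, 0.04 and -0.11 over all symbols. Tuba1a, the main alpha tubulin of young neurons, had 5661 to 23393 CPM in the WT saline libraries, 13126 in the library labelled KO ethanol 12 and 2640 to 5122 in the other 8, and its log2 fold change in WT ethanol versus WT saline was -1.94 ± 0.75 (edgeR, adjusted p = 0.22). Of 21 motors and dynein regulators, 5 and 6 were higher and none lower, and 5 were lower in the interaction. Dync1li2, a light intermediate chain of dynein, was higher by 1.51 ± 0.33 (adjusted p = 0.104). Of 27 other microtubule-associated proteins and stathmins, 4 were higher in each comparison with WT saline, and Nav3, a protein of growing microtubule ends, had the smallest p in WT ethanol and was higher by 2.26 ± 0.45 (adjusted p = 0.083). Of 14 plus-end and spectraplakin proteins 2 and 3 were higher and none lower. Of 18 severing and tubulin modifying enzymes 1 was higher and 3 were lower in each, the tubulin folding cofactor Tbca by -2.12 ± 0.77 (adjusted p = 0.211) in WT ethanol. The smallest p of this list in WT ethanol belonged to Fign, which was higher by 5.30 ± 1.38 (edgeR, adjusted p = 0.153), from a mean of 0.319 CPM in WT saline. Of 19 kinases and phosphatase subunits 1 was higher in each and 1 lower in KO saline. In KO ethanol versus KO saline, 2 genes of the 6 lists were called, Map9 (-1.17 ± 0.41) and Nav3 (-1.0 ± 0.44), each with an adjusted p of 0.999.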

How the data were processed

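Total RNA-Seq libraries from somatosensory cortex, 3 per group, were grouped by the genotype and treatment in the labels. The members and the gene lists were chosen with earlier results of these data known. Per the study's methods some tissue samples were laser microdissected and the others hole-punched, and which libraries these were is not given in the sources used here.

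Reads were aligned by the authors to mm10 (Bowtie2 inside TopHat), and Partek Flow gave an estimated count for each RefSeq transcript. These deposited estimated counts are not scaled and hold fractions, since reads shared between transcripts were divided. The deposited RPKM values, which appear to be quantile normalized by the authors, served for levels between genes and for an alternative fit on log2 values with a pseudocount of 1 or 0.1.

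Counts were rounded and fitted in edgeR 4.0.16 (R 4.3.3) by the quasi-likelihood test, after filterByExpr at its defaults and TMM scaling, with 1 mean per group over 12 libraries, for 21715 transcripts and, after summing, 14739 symbols. CPM use the TMM-scaled library size. Standard errors come from the F statistic. Unequal change among transcripts was tested with diffSpliceDGE, and limma 3.58.1 (voom) and DESeq2 1.42.0 were alternatives. P-values were two-sided and adjusted by Benjamini-Hochberg over all features, and measure the spread between these libraries. The edgeR, DESeq2 and limma fits were tested on simulated counts, and the other steps were not. An exact permutation test of 3 libraries against 3 cannot go below 0.1 and was not used. Fixed ratios were sought among transcript pairs with counts of at least 1, within 0.01%. Transcript structures come from GENCODE vM21 through its RefSeq table, and promoter windows, found for 7 of 10 symbols, from RefSeq. All symbols were named, and transcripts mainly where they held 10% of a symbol's count in a group. Genes of the lists were named from the 3 with the smallest p in a comparison, and not always the first.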

Additional observations from a re-analysis of the deposited data

Results flagged for a closer look

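The interaction term had an adjusted p under 0.30 (edgeR) in 12 of 34 member transcripts, against 12.1% of all transcripts, and each value below is the log2 ethanol effect of KO less that of WT animals. Map4 was selected on this term, so its 3 transcripts are listed as a description and their passing shows nothing. For Map4 the value was -2.79 for NM_001205330, -3.31 for NM_001205332 and -3.70 for NM_008633. For Mapt it was -3.04 for NM_001038609, -1.32 for NM_001285455, -2.44 for NM_001285456 and -2.86 for NM_010838, and 2.81 for NM_001285454, the only positive value. It was -4.03 for Map2 NM_001310634, -3.71 for Dclk1 NM_001111053, -2.49 for Dclk1 NM_019978 and -5.17 for Map6 NM_010837. With the first letter of the library name as a covariate, no interaction of a member passed an adjusted p of 0.30 (0 of 34), and 9 passed an unadjusted p of 0.05, against 10% of all transcripts.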

How the results depend on the processing

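No log2 fold change of a member transcript or sum called at unadjusted p under 0.05 changed sign under any alternative, and 134 of those recomputed no longer passed. Sums that were not called did change sign, that of Mapt in WT ethanol versus WT saline from -0.54 to as high as 0.60. In RPKM the WT saline and WT ethanol means of Stmn1 and Map1b stood in the other order than in CPM. Of the counts recomputed, 190 stayed within 1.5 times the first value and 32 did not. Requiring at least 10 counts in every library left 26 transcripts, 9 sums and 7 divided symbols, and called 8, 7 and 7 transcripts in WT ethanol versus WT saline, KO saline versus WT saline and the interaction, 0 sums in the first 2 of these and 3 divided symbols in each (Map2, Map4 and Mapt, without Dclk1 and Map6). Of all 8320 transcripts left, 20.7%, 23.1% and 20.3% were called in these comparisons. For sums the background was 20% and 23.4%, and for divided symbols 19.5%, 17.2% and 17.1%. In KO ethanol versus KO saline, 1 transcript was called without the 2 libraries named with L, with the letter as a covariate, and with the length and GC trend removed, and 5 with only the groups compared and with limma on log2(RPKM + 1). Of all transcripts, these fits called 3.73%, 1.83%, 2.21%, 3.86% and 3.69%, in the same order. Without the libraries named with L, called sums were 2, 4 and 3 in WT ethanol, KO saline and the interaction, where 37.3%, 39.2% and 21.4% of all symbols were called. With library size alone called sums were 3 in KO saline versus WT saline, 1 in KO ethanol and 2 in the interaction, and with the letter as a covariate 2 in the interaction. Of all symbols, 20.3%, 2.68% and 15.6% were called with library size alone, and 10.3% in the interaction with the letter. Leaving out 1 library gave 9 to 15, 0 to 4, 10 to 16 and 10 to 13 transcripts in WT ethanol, KO ethanol, KO saline and the interaction, 0 to 2, 0 to 0, 0 to 3 and 0 to 1 sums, and 5 to 5, 0 to 0, 4 to 5 and 4 to 5 divided symbols. The share of all transcripts called in these fits ranged from 10.1% to 26.1%, 0.845% to 6.1%, 11.5% to 27.9% and 10.1% to 20%. For sums the share of all symbols ranged from 9.5% to 31.7%, 0.319% to 7.6%, 11% to 33.6% and 9.8% to 23.6%. For divided symbols it ranged from 14.2% to 27.6%, 2.46% to 5.21%, 13% to 27.7% and 12.7% to 24.8%. The cause of these shifts was not tested. At adjusted p under 0.05, all transcripts called in WT ethanol versus WT saline numbered 12, and 3095 without the 2 libraries named with L. Member transcripts at that level were 1, 0, 1 and 0 in WT ethanol, KO ethanol, KO saline and the interaction, 10, 0, 10 and 7 by DESeq2, and 10, 0, 10 and 0 without the libraries named with L. In the first of these fits the 1 in WT ethanol and in KO saline was Map4 NM_001205332. It was selected on these comparisons, so its passing shows nothing, and no other member transcript passed. The 10 without the libraries named with L also include Map4 transcripts. Over all transcripts the calls rose as well, from 12, 0, 15 and 0 of 21715 to 1270, 5, 1507 and 732 by DESeq2. Without the libraries named with L they were 3095, 0, 3848 and 3 of 22195. No paired analysis was made, because the litters of the mice are not given in the sources used here. Depth limits the transcripts in the library labelled KO ethanol 12, with 291 reads for all of Map4.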
